A study of Bos taurus with 3 samples.

Results

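Connexins form gap junctions, the channels through which neighbouring cells exchange ions and small metabolites. The 6 connexin genes described here, GJA1, GJB2, GJB6, GJA4, GJA5 and GJC1, were chosen by name from the 27270 genes of the count tables, which hold 22 connexin and pannexin genes in all. Each symbol matched 1 gene. GJA1 is ENSBTAG00000001835, GJB2 is ENSBTAG00000017425 and GJB6 is ENSBTAG00000038662. GJA4 is ENSBTAG00000013881, GJA5 is ENSBTAG00000006720 and GJC1 is ENSBTAG00000004036. In the RefSeq annotation of ARS-UCD2.0, GJB2 and GJB6 were separated by 1 annotated locus, LOC107132994.

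The tissue was the ventral sac of the rumen of 3 Holstein calves taken 1 day after birth. The muscle layers had been removed, the mucosa was dissociated with enzymes, and 1 single-cell RNA-seq library of the 10x 3′ v3 kind was made per calf. All calves belonged to 1 group with no treatment, so the comparisons are between cell classes of the same animals, with calf as the replicate. The tables held 7529, 12043 and 11656 barcodes for calves 1, 2 and 3. Of these, 24042 cells with 500 to 4000 genes were kept: 4695, 9746 and 9601 per calf, at median depths of 10159, 6461 and 7378 UMIs (unique molecular identifiers, each standing for 1 captured transcript).

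A connexin protein spans the membrane, assembles into a hexameric half-channel called a connexon, and docks with a connexon of the next cell. GJA1 encodes connexin 43, the most widespread family member. GJB2 and GJB6 encode connexin 26 and connexin 30, which are found in stratified epithelia and in the inner ear, and GJA4, GJA5 and GJC1 encode connexin 37, connexin 40 and connexin 45, which are best known from the vessel wall and the heart. In stratified epithelia such as the rumen lining, cells move from a basal layer through a spinous layer to a granule layer, and the set of connexins they carry changes on the way.

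The kept cells were 21112 epithelial, 1333 endothelial, 468 fibroblast, 317 mural-like and 812 immune cells. Mural-like cells carried markers of smooth muscle and pericytes (ACTA2, MYH11, DES), the contractile cells around vessels. Among epithelial cells, clusters made without any connexin or pannexin gene were named from marker lists: 1091 spinous-like cells (led by SPINK5, KRTDAP and A2ML1, with all 10 measured spinous markers raised), 2969 basal-like cells (6 of 10 basal markers raised, led by IL1R2, IGFBP3 and ADAMTSL5) and 2975 cycling-like cells. The basal-like name was weakly marked. Its mean log2 score was 0.30 over the basal markers and 0.28 over the spinous markers. The spinous-like cluster scored 4.74 over the spinous markers. A shallower cluster of 933 cells had 7 of 10 basal markers raised, at a mean of 0.19, and was left among the other epithelial cells. So was a cluster of 1551 cells with a basal mean of 0.24. Comparisons with basal-like cells rest on this name. No cluster could be named granule-like. The granule markers TGM1 and IVL were highest in the spinous-like cells, at 2.46 and 1.68 UMIs per 10000, so that class also held cells with granule transcripts. Of 7 measured granule markers, 5 were raised there, at a mean of 2.32. The list did not move as a whole. CLDN4 was among the leading genes of the other epithelial cluster of 1551 cells, and DLK2 among those of basal-like clusters at coarser and finer clustering. The remaining 14077 epithelial cells are called other epithelial cells.

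The calves contributed unequally. Calf 1 had 16 fibroblasts, 10 immune cells and 6 mural-like cells. Its mural-like sum was left out, so mural-like levels, shares and tests rest on calves 2 and 3. Ratios of summed UMIs and the mural-like sums of marker lists pool all calves, calf 1 among them. Calf 3 stood apart among the spinous-like cells. The summed spinous list ranged from 73.7 to 329 UMIs per 10000 across the calves, and KRT4, a keratin of the suprabasal layers, gave 53843, 91889 and 7745 UMIs in calves 1, 2 and 3. The libraries of calves 1 and 2, 1 and 3, and 2 and 3 shared 11, 18 and 25 barcode sequences among kept cells.

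Levels are UMIs of a gene per 10000 UMIs of all genes, summed over the cells of a class in 1 calf. A UMI comes from the 3′ end of a transcript, so no correction for transcript length was made. Positive shares are shares of cells with at least 1 UMI after every cell was thinned to 2000 UMIs, so that classes of unequal depth can be set side by side. Cells below that depth were left out, 5, 151 and 120 of the fibroblasts of calves 1, 2 and 3 among them. Intervals and lower bounds cover counting error only.

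**Figure D1:**
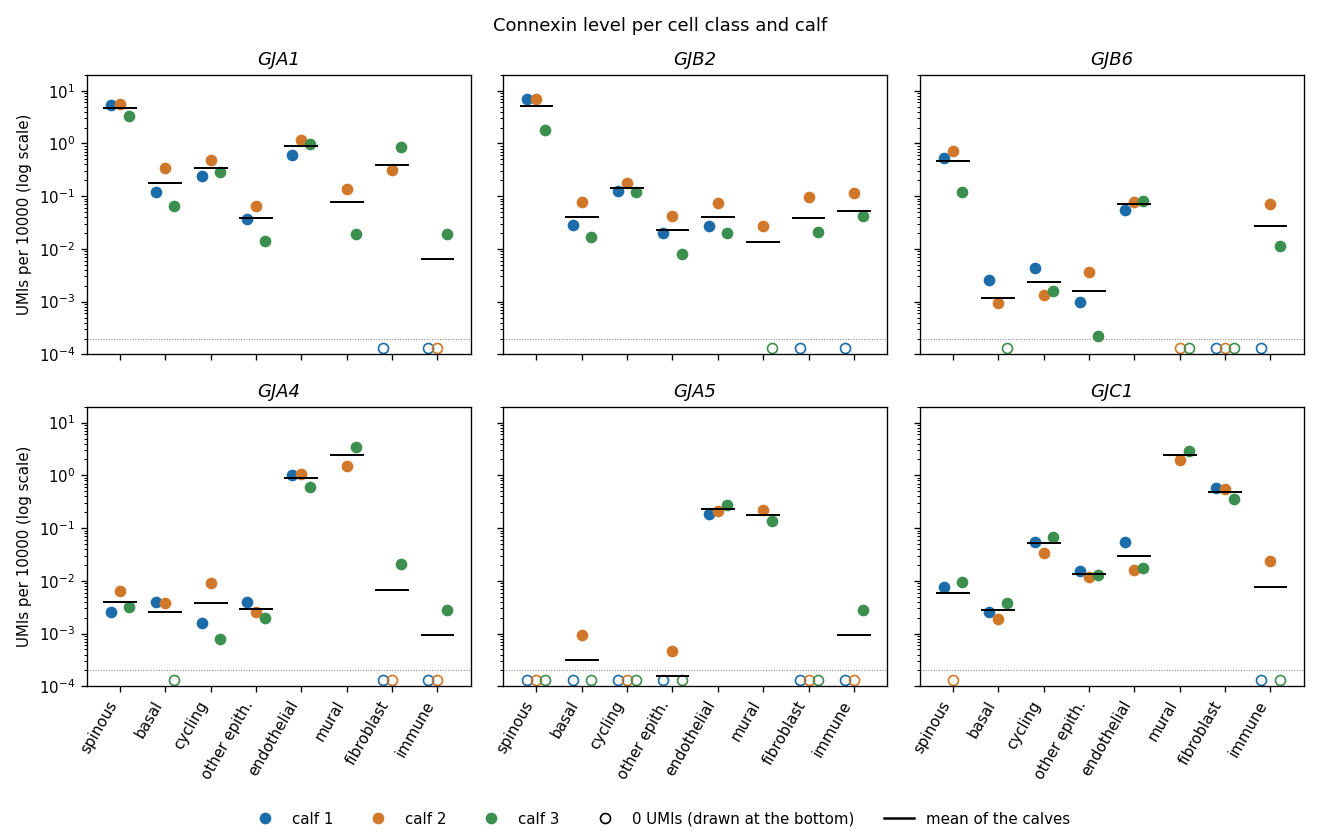
Level of each connexin in 8 cell classes, in UMIs per 10000 on a log axis, with 1 filled point per calf, open points at the bottom for calves with 0 UMIs, and a line at the mean of the calves. By the mean of each of these 8 classes, GJA1, GJB2 and GJB6 were highest in spinous-like cells, GJA4 and GJC1 in mural-like cells and GJA5 in endothelial cells.

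Spinous-like cells made up 4.54% of the kept cells and held 70.3% of the GJA1 UMIs, 89.0% of the GJB2 UMIs and 88.9% of the GJB6 UMIs. In calf 3, where they were 2.73% of the cells, they held 54.1%, 71.1% and 51.4%, and endothelial cells held 38.9% of the GJB6 UMIs. The GJB2 level in spinous-like cells was 6.997 UMIs per 10000 in calf 1, 6.84 in calf 2 and 1.80 in calf 3 (mean 5.21 ± 2.96, SD, n = 3). Calves 1 and 2 were alike and calf 3 lay lowest, yet even calf 3 stood above every other class in every calf. After thinning, 33.0%, 44.6% and 11.9% of spinous-like cells had a GJB2 UMI (mean 29.8% ± 16.6, SD, n = 3). The next class was the cycling-like cells, at 0.125, 0.181 and 0.122 UMIs per 10000. These did not overlap with the spinous-like values or with the immune cells below them, and from the immune cells downwards every neighbouring pair of classes overlapped.

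GJB6, like GJB2, was highest in spinous-like cells, at a lower level. Its spinous-like level was 0.539, 0.719 and 0.119 UMIs per 10000 in calves 1, 2 and 3 (mean 0.459 ± 0.308, SD, n = 3), and thinned cells were positive in 5.49%, 9.13% and 0.397%. Calf 3 was again lowest, with GJB6 in 1 of 252 thinned spinous-like cells. Basal-like cells held 3 GJB6 UMIs in all calves together. Fibroblasts and mural-like cells held none. For fibroblasts, 0 of 192 thinned cells allows a share of up to 1.56% of cells with a UMI at this depth, which does not limit the share of cells that express the gene.

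GJA1, the connexin 43 gene, spread less over the calves than GJB2 in the same class. In spinous-like cells it stood at 5.32, 5.61 and 3.27 UMIs per 10000 (mean 4.73 ± 1.28, SD, n = 3), with 50.5%, 53.0% and 34.9% of thinned cells positive. In basal-like cells it was 0.120, 0.344 and 0.0652 UMIs per 10000, and in cycling-like cells 0.239, 0.484 and 0.288. Every calf had more GJA1 in cycling-like than in basal-like cells, but the ranges overlapped because calf 2 was high in both. Below the endothelial class, each class overlapped with the next down to the immune cells.

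Against basal-like cells, GJA1, GJB2 and GJB6 were all higher in spinous-like cells by edgeR's quasi-likelihood test, in a comparison in which 36.3% of the 11227 genes tested were called, 18.3% higher and 18.0% lower. The log2 difference was 5.05 ± 0.35 (SE) for GJA1 (adjusted p = 1.08e-06) and 7.08 ± 0.40 for GJB2 (adjusted p = 1.85e-07). For GJB6 the adjusted p was 1.58e-08, and the ratio of the summed UMIs was 457 with a 95% counting interval of 156 to 2220, since the basal-like count was 3. GJB6 passed the low-count filter only through the class in which it was high, so its adjusted p adds no support beyond the counts. GJC1 differed by 0.89 ± 0.87 and was not called (adjusted p = 0.459). GJA4 and GJA5 had too few epithelial UMIs to be tested among the layers.

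Cycling-like cells, which carry transcripts of DNA replication and mitosis, differed from basal-like cells most in GJC1. Its level was 0.0537, 0.0341 and 0.0693 UMIs per 10000 in cycling-like cells of calves 1, 2 and 3, against 2, 2 and 3 UMIs in all basal-like cells of each calf. The cycling-like values lay above the basal-like values in every calf. The log2 difference was 4.06 ± 0.46 (SE, edgeR adjusted p = 5.67e-05), where 29.5% of the 11227 genes tested were called, 15.8% higher and 13.6% lower. Its size also reflects the reference, as basal-like cells had the lowest mean GJC1 level of the 8 classes, 0.00278 UMIs per 10000. The other epithelial cells had a mean of 0.0134. They lay above basal-like and below cycling-like cells (mean 0.0524) without overlap. The cells of DNA replication, led by UHRF1 and MCM3, and those of mitosis, led by CENPF and TOP2A, carried like levels: 0.0524, 0.0248 and 0.0706 in the first and 0.0552, 0.0504 and 0.0674 in the second. Cycling-like cells held 69.9%, 14.8% and 27.2% of the kept GJC1 UMIs of calves 1, 2 and 3, and were 28.5%, 6.65% and 10.3% of the cells. The mural list summed to 0.23 UMIs per 10000 in cycling-like and 0.11 in basal-like cells, against 106 in mural-like cells.

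GJB2 was also higher in cycling-like than in basal-like cells, by 1.82 ± 0.41 on the log2 scale (SE, edgeR adjusted p = 0.00590). GJA1 was higher by 0.96 ± 0.32 (adjusted p = 0.0432) and GJB6 differed by 1.22 ± 0.88 (adjusted p = 0.333). Spinous markers moved with them. The 2 cycling-like clusters had 6 and 5 of 10 spinous markers raised against 2 in the basal-like cluster, and the spinous list summed to 20.4 UMIs per 10000 (13.2 to 24.1 over the calves) against 16.7 (7.09 to 25.5). Their part in the connexin differences was not tested. The GJA1 and GJB2 calls depended on how the cells were clustered. At a finer resolution of 1.2 the GJA1 difference was -0.53 and the GJB2 difference 0.65, neither called, and at that resolution a basal-like cluster of 509 cells had GJA1 among its 10 leading genes. Without Harmony, the step that merges the calves, they were -0.46 and 0.06. Without calf 1 and without calf 3 the GJA1 call was lost (adjusted p = 0.0956 and 0.290).

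The epithelial connexins also rose with the amount of spinous transcripts in single cells. Epithelial cells were split by their UMIs of the spinous list per 2000 UMIs into 4 ranges, a description that shares its cells with the clusters above. GJA1 was positive in 0.932%, 2.40% and 0.808% of cells with 0 to 4 spinous UMIs in calves 1, 2 and 3, and in 34.5%, 43.5% and 58.5% of cells with 20 to 49. In the top range of 50 or more, it was 68.9%, 55.4% and 50.0%.

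GJB2 lagged behind GJA1 in this order. It was positive in 16.4%, 22.6% and 22.6% of cells with 20 to 49 spinous UMIs, below GJA1 in each calf, and in 64.4%, 72.8% and 70.0% of cells with 50 or more. In that top range the 3 calves were close in GJB2, and its level there was 12.1, 12.4 and 15.0 UMIs per 10000. The list includes KRT4, which was scarce in calf 3, so a range need not hold like cells in each calf. Calf 3 had only 10 cells in the top range, against 90 and 224 in calves 1 and 2, and 53 cells in the range of 20 to 49.

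GJB6 appeared last. It was positive in at most 1.69% of cells in any calf up to 49 spinous UMIs, and in 13.3%, 19.2% and 10.0% of those with 50 or more. KRT4, a gene of the list, was scarce in calf 3. The lower GJB2 and GJB6 levels of calf 3 in the spinous-like class therefore went with fewer cells high in this list. Their part in the difference between calves was not tested.

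**Figure D2:**
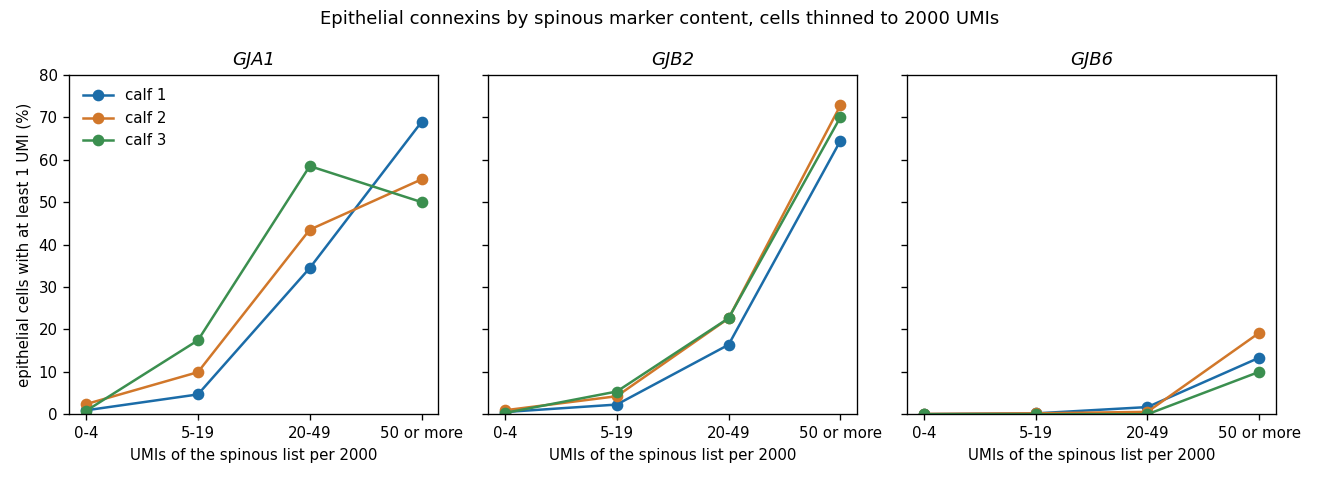
Share of epithelial cells with at least 1 UMI of GJA1, GJB2 or GJB6 (%, vertical axis) by UMIs of the spinous list per 2000 UMIs (horizontal axis, 4 ranges), with 1 line per calf. GJA1 was already at 34.5% to 58.5% in the range of 20 to 49, where GJB2 stood at 16.4% to 22.6% and GJB6 at 0% to 1.69%.

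Co-detection within the spinous-like class differed between the pairs. Of 1029 thinned spinous-like cells, 220 had both GJA1 and GJB2, where the product of the shares within each calf gives 175. GJB2 was found in 44.9%, 51.3% and 23.9% of GJA1-positive cells and in 20.7%, 37.1% and 5.49% of GJA1-negative cells of calves 1, 2 and 3. The positive cells were ahead in every calf. GJB2 and GJB6 shared 51 cells against a product of 25.6, with 13, 37 and 1 cells in the 3 calves. GJA1 and GJB6 shared 30 cells against 32.3, which is close to the product.

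At least 1 of these 3 connexins was detected in 61.2%, 71.4% and 38.5% of thinned spinous-like cells in calves 1, 2 and 3. All 3 were detected together in 6, 19 and 0 cells. In calf 1, 97 cells had 1 of them, 64 had a pair and 106 had none. In cycling-like cells GJA1 and GJB2 met in 13 cells against a product of 2.87, with 2, 3 and 8 cells in the 3 calves. In cells as sparse as these, a cell with no UMI may still carry the transcript.

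Outside the epithelium, GJB2 was low, as it was in basal-like and other epithelial cells. Its mean level was 0.0529 UMIs per 10000 in immune cells, 0.0400 in endothelial cells, 0.0385 in fibroblasts and 0.0138 in mural-like cells. Basal-like cells stood at 0.0404 and other epithelial cells at 0.0231. GJB2 was detected in 0.746% of thinned endothelial cells and 1.13% of thinned immune cells (means of calves with at least 10 cells). Median depths there were 3919 and 4633 UMIs, against 11750 in spinous-like cells. KRT15, an epithelial keratin that endothelial and immune cells should lack, stood at 5.06 and 5.82 UMIs per 10000 in those classes, against 110 in all epithelial cells. The pooled GJB2 level was 0.0412 and 0.0491 in the same classes against 0.461. In calf 3, immune cells had 15 GJB2 and 36 KRT4 UMIs and endothelial cells 7 and 26, where epithelial cells had 763 and 16117. In calf 2 the same counts were 5 and 104, 18 and 248, and 4742 and 131594. In calf 1 they were 0 and 3, 1 and 62, and 3020 and 111129. Calf 3 thus stood furthest from its epithelial proportion, and KRT4 was scarce in that calf. The part of free RNA in the GJB2 of these classes was not tested. The tests set each class against all epithelial cells together, and spinous-like cells held 89.0% of all GJB2 UMIs. By the edgeR test GJB2 was lower in endothelial cells than in that epithelial sum (log2 difference -3.55 ± 0.34, adjusted p = 1.07e-07). It was also lower in fibroblasts (-3.34 ± 0.53, adjusted p = 6.54e-05) and in immune cells (-2.28 ± 0.37, adjusted p = 6.52e-05). Of the 7977 genes tested, 49.6%, 42.4% and 51.7% were called in these 3 comparisons, 23.0%, 20.5% and 26.4% of all genes lower and 26.6%, 22.0% and 25.4% higher.

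GJB6 in endothelial cells did not keep the ratio to GJB2 seen in the epithelium. Endothelial cells had 2, 19 and 28 GJB6 UMIs and 1, 18 and 7 GJB2 UMIs in calves 1, 2 and 3. Spinous-like cells had 210, 457 and 37 GJB6 UMIs against 2726, 4350 and 559 GJB2 UMIs. GJB6 counts were thus about equal to the GJB2 counts in endothelial cells of calves 1 and 2 and above them in calf 3, while in spinous-like cells GJB6 was the scarcer of the pair in every calf. The endothelial level was 0.0539, 0.0771 and 0.0806 UMIs per 10000 (mean 0.0705 ± 0.0145, SD, n = 3), below the spinous-like level without overlap. Most of it, 45 of 49 UMIs, lay in the endothelial cluster led by PLVAP and VWF, and 1.39% ± 0.0652 (SD, n = 3) of thinned endothelial cells were positive. GJB6 had too few UMIs for a test between the broad classes.

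GJA1 had the highest mean share of positive endothelial cells of the 6 connexins. Its endothelial level was 0.593, 1.16 and 0.956 UMIs per 10000 in calves 1, 2 and 3, and 13.0%, 18.3% and 17.4% of thinned cells were positive, far above the 0.158% of thinned immune cells of calf 3. Against all epithelial cells together the edgeR difference was 0.63 ± 0.40 on the log2 scale (SE) and was not called (adjusted p = 0.209). In counts of thinned cells it was 1.17 (adjusted p = 0.00222). Immune cells held 7 GJA1 UMIs in all and were lower than epithelial cells (log2 difference -4.90 ± 0.80, adjusted p = 6.32e-05).

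The vascular connexins GJA4 and GJA5 had few UMIs in the epithelium. GJA4, connexin 37, stood at 0.998, 1.05 and 0.610 UMIs per 10000 in endothelial cells of calves 1, 2 and 3 (mean 0.886 ± 0.241, SD, n = 3), with 13.0%, 12.3% and 8.26% of thinned cells positive. In all epithelial cells it had 15, 26 and 11 UMIs. The log2 difference from epithelial cells was 7.85 ± 0.39 (SE, edgeR adjusted p = 2.54e-11), in a comparison with 26.6% of the 7977 genes tested called higher. GJA5, connexin 40, was at 0.189, 0.211 and 0.279 UMIs per 10000 in endothelial cells (mean 0.226 ± 0.0471, SD, n = 3), and the 3 calves lay close together. All epithelial cells held 3 GJA5 UMIs, 1525-fold fewer per UMI sequenced than endothelial cells with a 95% counting interval of 512 to 7476 (adjusted p = 1.84e-08). Both genes passed the low-count filter only through the cells of the vessel wall, so their adjusted p values add no support beyond the counts.

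Mural-like cells carried GJA4 and GJC1. GJA4 was at 1.52 and 3.43 UMIs per 10000 in calves 2 and 3, with 18.6% and 46.5% of thinned cells positive. Both values lay above those of the endothelial class as a whole. GJC1, connexin 45, was at 1.93 and 2.88 UMIs per 10000 (27.9% and 38.6% of thinned cells). GJA5 was at 0.221 and 0.136, the first within the range of the endothelial cells and the second below it. The ranges of the whole endothelial class and of mural-like cells thus overlapped in GJA5 and not in GJA4 or GJC1. That class pools 2 clusters, described below, and 154 of its 156 GJA5 UMIs lay in the smaller one. The smaller cluster lay above the mural-like range in GJA5, and within or above it in GJA4.

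Between endothelial and mural-like cells, GJC1 was lower in endothelial cells with a log2 difference of -6.999 ± 0.43 (SE, edgeR adjusted p = 2.80e-09), where 24.0% of the 7977 genes tested were called in either direction and 11.1% lower. GJA4 was also lower in the endothelial class as a whole (-1.60 ± 0.35, adjusted p = 0.00235), which pools 2 clusters. Of its 508 GJA4 UMIs, 430 lay in the smaller cluster, described below, whose levels were within or above the mural-like range. Without calf 3 the difference of the whole class was -0.56 and not called. That fit holds 1 mural-like library, which is assumed to vary like the other classes. GJA1 was higher in endothelial cells by 3.82 ± 0.82 (adjusted p = 0.00181), and 13.0% of genes were called higher. GJA5 differed by 0.56 ± 0.64 and was not called (adjusted p = 0.621). The epithelial list summed to 22.3 UMIs per 10000 in mural-like and 9.60 in endothelial cells, and the endothelial list to 1.81 in mural-like and 78.5 in endothelial cells. The part of such RNA in these differences was not tested.

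Endothelial cells fell into 2 clusters, and GJA4 and GJA5 separated them. This was seen after the values were known and is given with no test. The smaller cluster, of 17, 116 and 225 cells in calves 1, 2 and 3, was high in SOX17, BMX and CLDN5, genes of arterial and tight endothelium. Its GJA4 level was 4.66, 4.46 and 1.87 UMIs per 10000 and its GJA5 level 1.02, 1.14 and 0.897. The larger cluster, of 62, 445 and 468 cells, was led by PLVAP and VWF, genes of fenestrated and venous endothelium. There GJA4 was at 0.165, 0.311 and 0.0418 and GJA5 had 0, 2 and 0 UMIs. No value of 1 cluster overlapped with the other for either gene.

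GJA1 did not separate the 2 endothelial clusters in that way. It was at 0.729, 1.55 and 1.17 UMIs per 10000 in the SOX17 cluster and 0.562, 1.08 and 0.861 in the PLVAP cluster, and the ranges overlapped although the former was higher in each calf. The SOX17 cluster summed to 15.0 UMIs per 10000 of the arterial list against 2.80 in the PLVAP cluster. The capillary list summed to 5.76 and 31.1 in the same order. IGFBP3, which binds insulin-like growth factors, was at 19.6 and 3.32. Endothelial cells with an IGFBP3 UMI were positive for GJA5 in 18.2%, 9.52% and 10.99% of thinned cells of calves 1, 2 and 3, against 1.72%, 0.573% and 0.725% of those without.

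**Figure D3:**
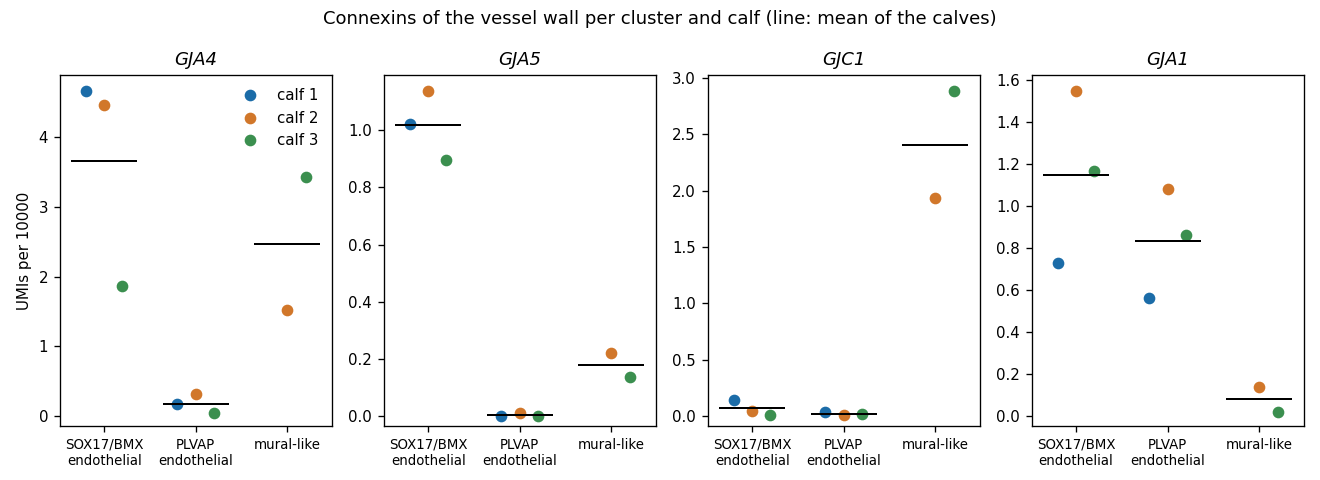
Level of GJA4, GJA5, GJC1 and GJA1 (UMIs per 10000, linear axes that differ between panels) in the SOX17 and BMX endothelial cluster, the PLVAP endothelial cluster and mural-like cells, with 1 point per calf and a line at the mean. GJA5 lay between 0.897 and 1.14 in the first cluster and at most 0.00988 in the second, and GJC1 was high in mural-like cells alone among the 3.

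Among endothelial cells 15 had both GJA4 and GJA5, where the product of shares within each calf gives 4.34. Within the SOX17 cluster alone the product was 15.6 for the same 15 cells, a ratio of 0.96, so the excess lay between the clusters and not within them. In mural-like cells GJA4 and GJC1 met in 38 cells against a product of 27.2. The counts were 6 against 4.47 in calf 2 and 32 against 22.8 in calf 3. Both calves were above their product. GJA4 and GJA5 shared 2 mural-like cells against 2.69.

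Fibroblasts carried GJC1 and, less evenly, GJA1. GJC1 was at 0.577, 0.546 and 0.349 UMIs per 10000 in calves 1, 2 and 3 (mean 0.491 ± 0.124, SD, n = 3), below the mural-like values and above those of cycling-like cells without overlap. Calf 1 contributed 3 UMIs from 16 cells. GJC1 was higher than in epithelial cells by 4.30 ± 0.41 on the log2 scale (SE, edgeR adjusted p = 1.77e-07), with 22.0% of the 7977 genes called higher. The mural list summed to 8.75 UMIs per 10000 in fibroblasts against 106 in mural-like cells. In the fibroblast cluster led by CXCL14 and PENK it was 12.9 and GJC1 was at 0.727 and 0.460 in calves 2 and 3. In the cluster led by MFAP5 and DLK1 it was 1.47 and GJC1 was at 0.151 and 0.164.

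GJA1 in fibroblasts was 0, 0.309 and 0.842 UMIs per 10000, so that calf 1 had none and calf 3 stood highest. It did not differ detectably from epithelial cells (log2 difference -0.18 ± 0.53, adjusted p = 0.828). The sign of that difference turned under several settings, and without calf 3 it was -1.88 (adjusted p = 0.00232). In this comparison edgeR called 1751 genes higher and 1632 lower, a share of 51.8% higher, whereas DESeq2 gave 2109 and 1290, or 62.0%, and moved the median of all genes from -0.04 to 0.19. GJA4 had 1 UMI and GJA5 none in all fibroblasts.

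Mural-like cells were higher than fibroblasts in GJC1 by 2.46 ± 0.36 on the log2 scale (SE, edgeR adjusted p = 1.54e-04), in a comparison with 13.9% of the 7977 genes called, 6.32% higher and 7.61% lower. GJA4 was 250-fold higher per UMI sequenced with a 95% counting interval of 44.4 to 9905 (adjusted p = 1.93e-06), as fibroblasts held 1 UMI. GJA5 was at least 5.31-fold higher (adjusted p = 0.0172). Its log2 difference was 10.2 to 10.6 with a calf left out, a size that rests on fibroblasts holding no UMI. The call was lost without calf 2. GJA1 was lower (-3.01 ± 0.95, adjusted p = 0.0416), and this was lost without calf 3 (-0.94, adjusted p = 0.719). The fits without calf 2 and without calf 3 each hold 1 mural-like library, and the spread comes from the other classes. As in the comparison with the epithelium, GJA4 and GJA5 passed the low-count filter only through the cells of the vessel wall. Their adjusted p values here add no support beyond the counts.

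Immune cells carried little of any connexin. GJA4, GJA5 and GJC1 had 1 UMI each in 812 immune cells. Endothelial cells had 101-fold more GJA5 per UMI sequenced (95% counting interval 17.8 to 4006) and 328-fold more GJA4 (58.6 to 12988). GJC1 was lower than in epithelial cells at an adjusted p of 0.0275, with 8.06-fold more in the epithelium (counting interval 1.44 to 319), and without calf 3 the log2 difference was 0.18 (adjusted p = 0.954).

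Proteins that anchor, modify or transport connexins were taken as a list of 29, of which 28 were in the tables. Between spinous-like and basal-like cells 26 were tested, 12 were higher and 3 lower (18.3% and 18.0% over all genes), and the median log2 difference was 0.36 against -0.03 over all genes. TJP3, a junctional scaffold, rose by 2.40 ± 0.18 on the log2 scale (SE, edgeR adjusted p = 2.29e-06). CDH1, the adherens junction cadherin of epithelia, rose by 1.44 ± 0.11 (adjusted p = 2.71e-06) and PKP1, a desmosomal plakophilin, by 2.01 ± 0.17 (adjusted p = 4.71e-06). Between cycling-like and basal-like cells 6 of the 26 were higher and 2 lower (15.8% and 13.6% over all genes), led by the tubulins TUBB (2.08 ± 0.14) and TUBA1B (2.60 ± 0.23) and by MAPRE1 (0.63 ± 0.10), a microtubule end-binding protein.

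Between the broad classes 21 of these genes were tested. On the partner list, CDH1, DSP and JUP were also among the epithelial markers and CDH5 among the endothelial markers used to name these classes. Their differences, and their part in the counts below, are therefore not independent of the names. In endothelial against epithelial cells 8 were higher and 5 lower, where 26.6% and 23.0% of all genes were, so the share of lower genes was near that of all genes. CDH5, the endothelial cadherin, was at 3.66 ± 0.423 UMIs per 10000 in endothelial cells and 0.00241 ± 0.00179 in epithelial cells (SD, n = 3). NEDD4, a ubiquitin ligase that acts on connexin 43, was higher by 4.04 ± 0.26 on the log2 scale (SE, adjusted p = 7.57e-10). DSP, the desmosomal anchor desmoplakin, was lower in endothelial cells (-5.43 ± 0.29, adjusted p = 7.71e-11), in fibroblasts (-4.81 ± 0.37, adjusted p = 1.16e-08) and in immune cells (-5.06 ± 0.34, adjusted p = 1.83e-09).

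In fibroblasts 5 of the 21 partner genes were higher than in epithelial cells and 10 lower, where 22.0% and 20.5% of all genes were, so the share of higher genes was near that of all genes. CCN3, a secreted protein that binds connexin 43, was higher by 5.67 ± 0.69 on the log2 scale, and the caveolar protein CAV1 by 2.41 ± 0.32. In immune cells 3 were higher and 7 lower, near the 51.7% of all genes called there (25.4% higher and 26.4% lower). JUP (-4.07 ± 0.38) and PKP1 (-4.18 ± 0.49), both desmosomal, were among the lower ones. Endothelial against mural-like cells gave 4 higher and 3 lower (13.0% and 11.1% over all genes). CTNND1, which binds cadherins, was higher by 1.49 ± 0.31 and the actin-binding DBN1 lower (-1.27 ± 0.27), while CDH5 was at 0 in mural-like cells. Mural-like against fibroblast gave 4 higher and 0 lower (6.32% and 7.61% over all genes), led by EZR (1.95 ± 0.38), which links membrane proteins to actin, with DBN1 (1.31 ± 0.30) and CAV1 (1.45 ± 0.34).

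For each connexin, the genes most like it were those with the highest Pearson correlation of log2 levels across 49 sums of a cluster in a calf, among 13680 genes. These sums share animals and libraries, so the coefficients are descriptions. GJB2 was closest to TGM3 (r = 0.86), TGM1 (0.86) and S100A8 (0.85), which cross-link the cornified envelope or belong to the epidermal differentiation genes. GJB6 was closest to GPM6A (0.86), SFXN5 (0.85) and ENSBTAG00000048720 (0.80). GJA1 was closest to TMEM254 (0.75), MGST3 (0.73) and AIFM2 (0.72), and to GJB2 it had r = 0.64.

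Among the genes most like GJC1 were DES (0.91) and ABCC9 (0.88), genes of contractile cells. GJA4 was closest to CHN1 (0.91), MCAM (0.90) and GJA5 (0.90), and GJA5 to GPR21 (0.93), GJA4 (0.90) and HSPB7 (0.85). GJA4 and GJC1, which shared the mural-like cells, had r = 0.46. Among the named likes, TGM1, TGM3, S100A8, DES and ABCC9 were also in the marker lists used to name the clusters.

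Of the 16 other connexin and pannexin genes, 6 had no UMI in kept cells. GJB5, a further connexin of keratinised epithelia, had 5910 UMIs, and PANX1, a pannexin that forms channels in a single membrane, had 465. GJB5 was at 0.288, 0.502 and 0.380 UMIs per 10000 in basal-like and 0.136, 0.316 and 0.144 in spinous-like cells of calves 1, 2 and 3. It was lower in spinous-like cells in each calf, opposite in sign to GJA1, GJB2 and GJB6, with a log2 difference of -0.86 ± 0.20 (SE, edgeR adjusted p = 0.00540). PANX1 (-0.79 ± 0.33, adjusted p = 0.0810) was not called.

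The limit on genes per barcode removed a large share of the epithelial connexins. Barcodes with over 4000 genes or 50000 UMIs numbered 797, 187 and 637 in calves 1, 2 and 3 and held 31.1%, 6.73% and 17.3% of all UMIs. They held 30.7%, 19.4% and 59.4% of the GJB2 UMIs and 35.4%, 20.2% and 47.3% of the GJA1 UMIs. Calf 3 lost the most, with 1221 of its 2056 GJB2 UMIs above the limit and 786 kept. For GJB6 the shares were 7.76%, 4.83% and 28.0%.

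The vascular genes were affected differently. GJA5 had 42.9%, 20.0% and 2.61% of its UMIs above the limit in calves 1, 2 and 3, and GJA4 had 39.2%, 9.73% and 8.82%. The GJA5 shares were 6 of 14, 18 of 90 and 3 of 115 UMIs. In calf 1 only 0.125% of the 797 barcodes above the limit held any GJA5. For both genes calf 1 lost the largest share and calf 3 the smallest. Barcodes with over 4000 genes and at most 50000 UMIs (735, 175 and 621 in calves 1, 2 and 3) were given the class of their nearest kept cells. None of 9 levels recomputed with them moved by more than 1 SD between calves. These levels were GJA1, GJB2 and GJB6 in spinous-like cells, GJA1, GJA4 and GJA5 in endothelial cells, GJA4 and GJC1 in mural-like cells and GJC1 in fibroblasts. The SD was wide, 2.96 on a mean of 5.21 for GJB2 in spinous-like cells and 1.35 on 2.47 for GJA4 in mural-like cells. Large changes could therefore go unmarked.

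**Figure D4:**
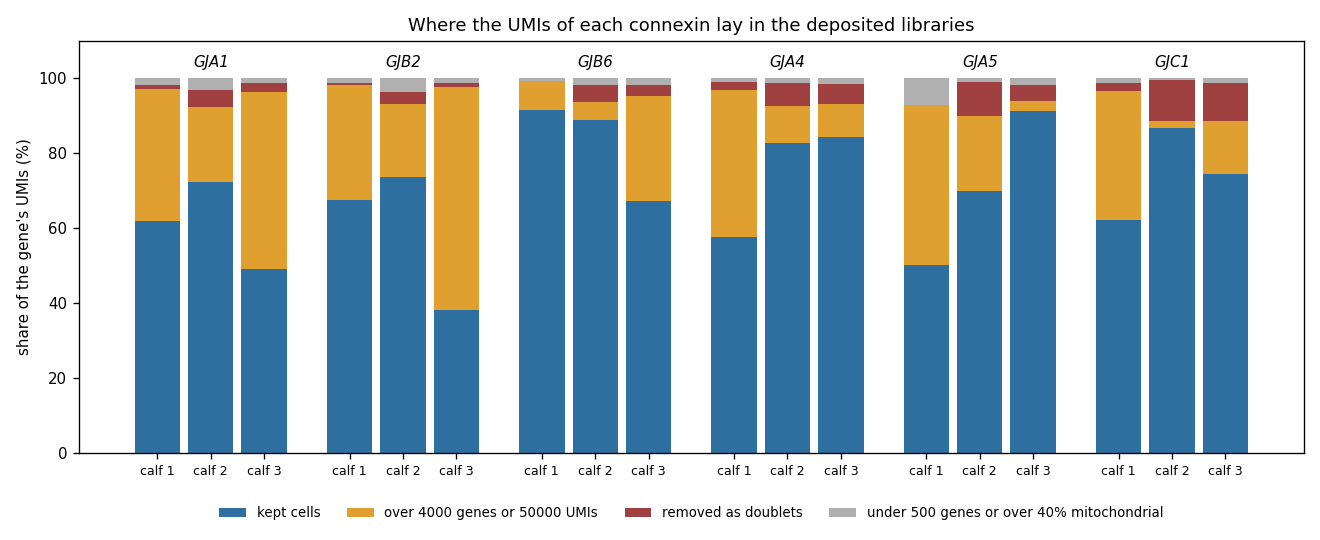
Share of all deposited UMIs of each connexin (%, bars stacked to 100) that lay in kept cells, in barcodes over 4000 genes or 50000 UMIs, in removed doublets, and in barcodes under 500 genes or over 40% mitochondrial UMIs, for each calf. Kept cells held 38.2% of the GJB2 UMIs in calf 3 and 91.3% of the GJA5 UMIs in the same calf.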

How the data were processed

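The authors deposited, per library, a matrix of raw UMI counts made with Cell Ranger 3.1.0 against ARS-UCD1.2. The connexins, gene lists and tests were chosen with earlier results of these data known. Barcodes with 500 to 4000 genes, at most 50000 UMIs and at most 40% UMIs of 13 mitochondrial genes were kept. Doublets were removed by a score against simulated doublets, at an expected 0.8% per 1000 cells (191, 908 and 879 cells), in place of the study's caller. From 2000 variable genes without connexins or pannexins, principal components were taken (30 for all cells, 50 for non-immune cells), merged over calves with a Harmony procedure and clustered with leidenalg 0.10.2 at resolutions of 0.1 and 0.8, in Python 3.11.15. Clusters were named from marker lists. The thresholds for names were set after the clusters were seen.

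Counts were summed per class and calf (at least 10 cells) and tested with edgeR 4.0.16 in R 4.3.3 (quasi-likelihood, TMM, calf as block), with Benjamini-Hochberg adjustment over all genes and a threshold of 0.05. Calf pairs the classes by design, since all come from the same animals. Broad classes and epithelial classes were fitted separately, because the latter are parts of the former, where a single fit had been planned. Tests were tried on simulated counts first. Shares used cells thinned to 2000 UMIs. Counting intervals of ratios are exact, and a class at 0 was set to a floor of 3 UMIs over the class. Named were the 6 connexins, other family members detected in 1% of a class, per comparison the 3 partner genes with the lowest adjusted p, and the 3 genes most correlated with each connexin in log2(UMIs per 10000 + 0.01), over sums of at least 30 cells and genes of at least 50 UMIs. The alternatives were DESeq2 1.42.0 and its size factors, other filters, fits without the block, other clusterings, depths and doublet handling, and each calf left out. Some genes that this rule names are not reported here. No sequence was used.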

Additional observations from a re-analysis of the deposited data

How the results depend on the processing

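Leaving out each calf gave 2867 to 4633 called genes for endothelial minus epithelial, 2161 to 3820 for fibroblast minus epithelial, 2335 to 4964 for immune minus epithelial, 1108 to 2216 for endothelial minus mural, 449 to 1167 for mural minus fibroblast, 2170 to 2949 for spinous minus basal and 1406 to 2254 for cycling minus basal. Without the calf as a block, spinous minus basal had 1192 calls (4074 with it) and cycling minus basal 461 (3311), and the connexin calls lost without the block were GJA1 (0.73) and GJB2 (1.60) in cycling minus basal and GJA1 in mural minus fibroblast. Without Harmony these 2 comparisons had 2364 and 987 calls, and in thinned cells 1777 and 1737. With no low-count filter endothelial minus epithelial had 6204 calls and immune minus epithelial 6587; a fit of 2 classes gave 6142 for the former, and thinned cells 2665 for the latter. None of the 9 class levels recomputed moved by more than 1 SD between calves, a wide limit for GJB2 in spinous-like cells (2.96 on a mean of 5.21). Shares moved with depth: at 1000 UMIs, at 2 or more UMIs and without thinning, GJA1 was at 32.9%, 24.0% and 72.5% in spinous-like and 9.13%, 2.32% and 29.5% in endothelial cells, GJA4 at 7.46%, 5.43% and 16.1% and GJA5 at 3.23%, 0.587% and 6.63% in endothelial cells, and GJC1 at 25.1%, 11.4% and 41.5% in mural-like cells. Without thinning GJB2 and GJB6 were at 57.5% and 12.3% in spinous-like cells, and the co-detection ratio of GJA4 and GJC1 in mural-like cells was 1.29 (1.40 thinned). At 2 or more UMIs GJA4 was at 10.8% in mural-like cells and GJC1 at 3.03% in fibroblasts. Log2 differences that changed sign were GJC1 in endothelial minus epithelial with a calf left out (-0.47 to 0.15, positive without calf 3), GJA1 in fibroblast minus epithelial with a calf left out (-1.88 to 0.58, negative only without calf 3) and thinned (0.22), GJA4 there with a calf left out (-5.35 to 2.92, negative without calf 3), GJA5 there in DESeq2 (5.50), and in immune minus epithelial GJA4 in DESeq2 (0.83), without calf 2 (0.51), with doublets (1.04) and thinned (1.39), and GJC1 with a calf left out (-7.90 to 0.18, positive without calf 3). With doublets kept, GJB2 changed sign in endothelial minus mural (-0.98) and mural minus fibroblast (0.80). GJC1 in spinous minus basal did so with doublets (-0.25), without Harmony (-0.26) and at a resolution of 0.4 (-0.62), and GJA1 in cycling minus basal without Harmony (-0.46) and at 1.2 (-0.53). Of these, GJC1 in immune minus epithelial and GJA1 in cycling minus basal were called in the fit as reported. The cause was not tested. Granule minus basal was not run, as no cluster was granule-like. Depth limits what can be said of the scarcer connexins, and calf 1 had few stromal and immune cells.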
